A study of Bos grunniens and Bos grunniens x Bos taurus with 12 samples.

Results

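The SPARC family of matricellular genes was examined for its translation level in the testes of yak and cattle–yak. The family was taken as 8 named genes, *SPARC*, *SPARCL1*, *SPOCK1*, *SPOCK2*, *SPOCK3*, *SMOC1*, *SMOC2* and *FSTL1*, which were looked up by symbol among the 20965 genes of the deposited tables. A total of 7 were found, and *SPOCK3* was not analysed here. The family was chosen by the measured counts of *SPARC*, which were the highest of all genes in 2 of the 12 libraries, a yak library of 6 months and a cattle–yak library. The levels of *SPARC* in these 2 groups are therefore given as a description with no test.

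Matricellular proteins are secreted into the extracellular matrix, where they bind collagens, growth factors and cell surface receptors and tune adhesion and matrix assembly without being structural fibres themselves. SPARC, also called osteonectin, is the founding member, and the others share with it a follistatin-like domain followed by an extracellular calcium-binding domain. In the mammalian testis, SPARC is known as a secreted product of Sertoli and Leydig cells, the somatic cells that nurse germ cells and make testosterone, while *SPOCK1* encodes testican, a proteoglycan first isolated from seminal plasma.

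Ribo-seq, in which the stretches of mRNA covered by ribosomes are sequenced, was performed on whole testis from 4 groups of 3 males each. Y6M, Y18M and Y4Y are yaks of 6 months, 18 months and 4 years, which the labels call juvenile, pubertal and sexually mature, and CY is cattle–yak of 4 years, also labelled sexually mature. Cattle–yak is the hybrid of a Jersey cattle sire and a Gannan yak dam, and its males are sterile. No animal carried an engineered allele or received an agent. The labels give castration as the way in which all testes were collected, whereas the methods give euthanasia for the yaks of 4 years and castration for cattle–yak, so the manner of collection and the hybrid genome cannot be told apart in CY and Y4Y. The paper reports that main read length, alignment rate to the yak genome and coding share of reads also differed between cattle–yak and yak. These technical differences cannot be told apart from the hybrid genome either. Libraries are named by group and replicate, such as Y6M-1, and each library is 1 of the 3 animals of its group.

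The total count per library was 25816963 to 37167651 in Y6M, 21309151 to 24542362 in Y18M, 16304058 to 17862516 in Y4Y and 38437889 to 52616039 in CY. Markers of spermatogonia and spermatocytes, and of Sertoli, Leydig, myoid and endothelial cells, fibroblasts and macrophages, were above 0 in every group. This shows only that they were detected. Libraries of Y18M did not resemble each other. The summed FPKM (fragments counted per kilobase of gene, scaled to the library total) of 6 spermatid markers, *ACRV1*, *SPACA1*, *SPATA16*, *TNP1*, *ODF1* and *GAPDHS*, was 7219 in Y18M-2 but 3.11 in Y18M-1 and 17.5 in Y18M-3. This sum was 1.42 to 1.88 in Y6M, 3.42 to 33.0 in CY and 9716 to 12546 in Y4Y, so Y18M-2 lay near the mature yaks. Of the 8 spermatocyte markers in Y6M, *HORMAD1* had a mean FPKM of 148 and each other marker 3.53 or less. In Y18M-1 the summed FPKM of 7 Sertoli cell markers was 6316, within the 6269 to 7719 of Y6M, against 2034 and 2959 in Y18M-2 and Y18M-3. Most of this sum was 1 gene, *INHA*, with a mean FPKM of 6580 in Y6M and 3447 in Y18M. The tests between groups that use Y18M are therefore given below with all libraries, without Y18M-1 and without Y18M-2. Group means, the make-up of the family and correlations use every library. In bulk testis, fewer cells of a type and fewer translated transcripts per cell cannot be told apart. No RNA-seq was used here, so mRNA level and translation per mRNA cannot be told apart either.

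In the gene ontology columns of the tables, all 7 of the 7 genes were annotated with calcium ion binding, against 534 of 14023 genes with any function term (3.81%). A total of 4 were placed in the extracellular space, 3 had no component term and 0 had a KEGG pathway. These annotations describe the known domains of the family and are no measurement of these testes.

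*SPARC* (ENSBGRG00000008993), which binds collagen and loosens cell adhesion, was translated at the highest level of the family in all 12 libraries. Its FPKM was 65635, 40758 and 39498 in Y6M-1, Y6M-2 and Y6M-3. It was 29212, 14145 and 12286 in the libraries of Y18M, in the same order. In the mature animals it was 3550, 4362 and 4805 in Y4Y and 9376, 10274 and 9498 in CY. The group means thus ran from 48630 ± 14740 (SD, n = 3) in Y6M through Y18M and CY to 4239 in Y4Y, and no neighbouring groups in this order overlapped. For Y6M and CY this only describes values by which *SPARC* was chosen. The share of all genes without overlap between groups was not counted, here or for the genes below. The cattle–yak libraries were close to each other, whereas Y18M-1 stood 2.21 times above the mean of the other 2 libraries of its group.

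*SPARC* alone took 6.46%, 4.01% and 3.89% of the total count in the libraries of Y6M. The share was 2.88%, 1.40% and 1.21% in Y18M. It was 0.354%, 0.436% and 0.477% in Y4Y and 0.927%, 1.02% and 0.941% in CY. A single gene thus took its largest part of the counted ribosome-covered reads in the juvenile testis, and its smallest in mature yak. *SPARC* ranked 1, 3 and 2 by count in Y6M, 3, 3 and 6 in Y18M, 14, 10 and 7 in Y4Y and 1, 2 and 2 in CY. Its share was lower in CY than in Y18M, but its rank by count in CY was as high as in Y6M. This did not hold by FPKM, by which *SPARC* ranked 5 in each CY library against 1, 3 and 3 in Y6M and 4, 5 and 7 in Y18M. The rank by count also depends on other genes. The uncharacterized ENSBGRG00000015704 was first in Y6M-2 (4.59%), in Y6M-3 (7.15%) and in every Y18M and Y4Y library (2.17% to 6.04%). It was not among the first 3 genes in Y6M-1 or in any CY library. In Y6M-1, the next genes were *TIMP2*, an inhibitor of matrix metalloproteases, with 4.81% and the unnamed gene ENSBGRG00000018450 with 2.74%. In CY-1, *TIMP2* followed with 0.899% and ENSBGRG00000001455, described in the tables as clusterin, with 0.785%. The exact binomial 95% interval of a share of *SPARC* reached at most 0.780% of its value to either side. Such intervals cover counting error only.

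**Figure D1:**
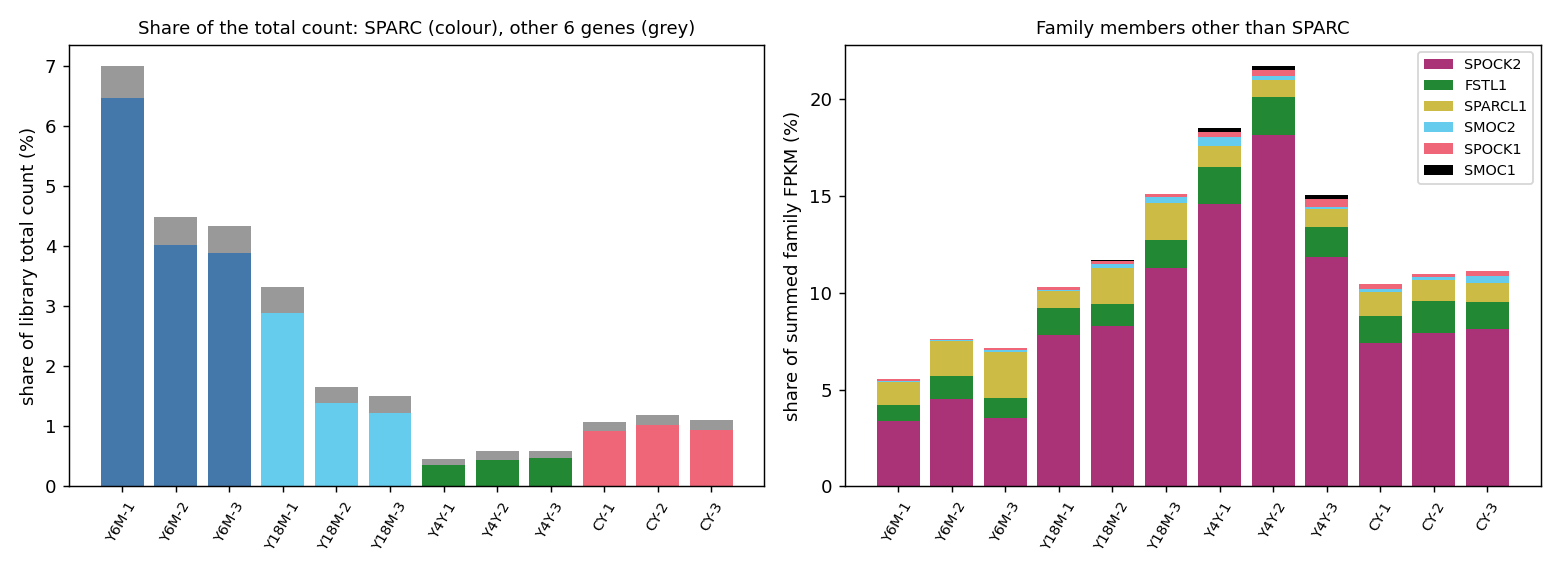
The left plot gives the share of the library total count (%) of *SPARC* in colour with the other 6 genes in grey on top, for the 12 libraries, and the right plot gives the share of the summed family FPKM (%) of each gene other than *SPARC*. The family share was at least 4.34% in Y6M and at most 0.593% in Y4Y, while *SPOCK2* took a larger part of the family in Y4Y than in Y6M.

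*SPARCL1* (ENSBGRG00000014840) encodes hevin, the closest relative of SPARC, which is known from endothelium and brain. Its FPKM was 824, 792 and 1019 in Y6M. In Y18M it was 273, 300 and 277. It was 47.6, 47.7 and 53.0 in Y4Y and 127, 125 and 101 in CY. The order of the groups was that of *SPARC*, again with no overlap between neighbours, for which a share of all genes was not counted. Unlike *SPARC*, the 3 libraries of Y18M were alike, with the highest only 1.10 times the lowest, although the markers of spermatids and Sertoli cells differed between them.

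*SPOCK1* (ENSBGRG00000002639) and *SPOCK2* (ENSBGRG00000024001) encode testicans, proteoglycans that carry heparan and chondroitin sulfate and act on matrix proteases. The FPKM of *SPOCK1* was 71.4, 34.7 and 54.9 in Y6M and 54.7, 26.4 and 17.3 in Y18M. It was 10.8, 17.0 and 24.3 in Y4Y and 24.5, 14.8 and 28.2 in CY. Each neighbouring pair in its order of means, Y6M, Y18M, CY and Y4Y, overlapped. *SPOCK2* was translated at much higher levels, with an FPKM of 2335, 1998 and 1505 in Y6M and 2542, 1325 and 1629 in Y18M. In the mature animals its FPKM was 636, 1011 and 669 in Y4Y and 777, 912 and 870 in CY. The levels of *SPOCK2* thus fell into 2 tiers, with Y6M and Y18M overlapping in the upper tier and CY and Y4Y in the lower, and no library of the upper tier as low as any of the lower.

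*SMOC1* (ENSBGRG00000007997) and *SMOC2* (ENSBGRG00000008750) encode modular calcium-binding proteins of basement membranes, and SMOC1 is known as an antagonist of BMP signalling. The FPKM of *SMOC1* was 8.57, 12.2 and 11.3 in Y4Y, the highest group, and 1.02, 2.19 and 1.44 in CY. In Y6M it was 2.11, 1.01 and 2.34. In Y18M it was 0.53 and 0.67 in Y18M-1 and Y18M-3 but 5.58 in Y18M-2, which is 9.30 times their mean. *SMOC1* was thus highest in the 4 libraries in which spermatid markers were high. These levels rest on few counts, 17 to 291 per library, and the exact binomial 95% interval of a share reached up to 50.9% of its value. The part of spermatids in these levels was not tested.

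*SMOC2* had an FPKM of 25.2, 19.8 and 38.8 in Y6M and 23.7, 29.2 and 48.0 in Y18M. Its FPKM was 20.4, 12.5 and 6.58 in Y4Y and 18.3, 19.9 and 38.8 in CY. All neighbouring groups overlapped, and replicate spread was wide in each group. Within a library, the ratio of *SMOC2* to *SMOC1* FPKM, which no scaling between libraries can move, was 11.9 to 19.6 in Y6M and 9.08 to 27.0 in CY. This ratio was 0.583 to 2.38 in Y4Y and 5.23 in Y18M-2, against 44.7 and 71.6 in Y18M-1 and Y18M-3. The pair was therefore nearest to balance in mature yak, the only group with a library in which *SMOC1* exceeded *SMOC2*.

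*FSTL1* (ENSBGRG00000002621), follistatin-like 1, binds ligands of the TGF-β superfamily and dampens BMP signalling. Its FPKM was 589, 518 and 426 in Y6M and 463, 181 and 211 in Y18M. It was 82.8, 110 and 87.8 in Y4Y and 146, 192 and 149 in CY. The order of means was again Y6M, Y18M, CY and Y4Y, but only CY and Y4Y did not overlap among neighbours, because Y18M-1 reached the level of Y6M and Y18M-2 that of CY.

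**Figure D2:**
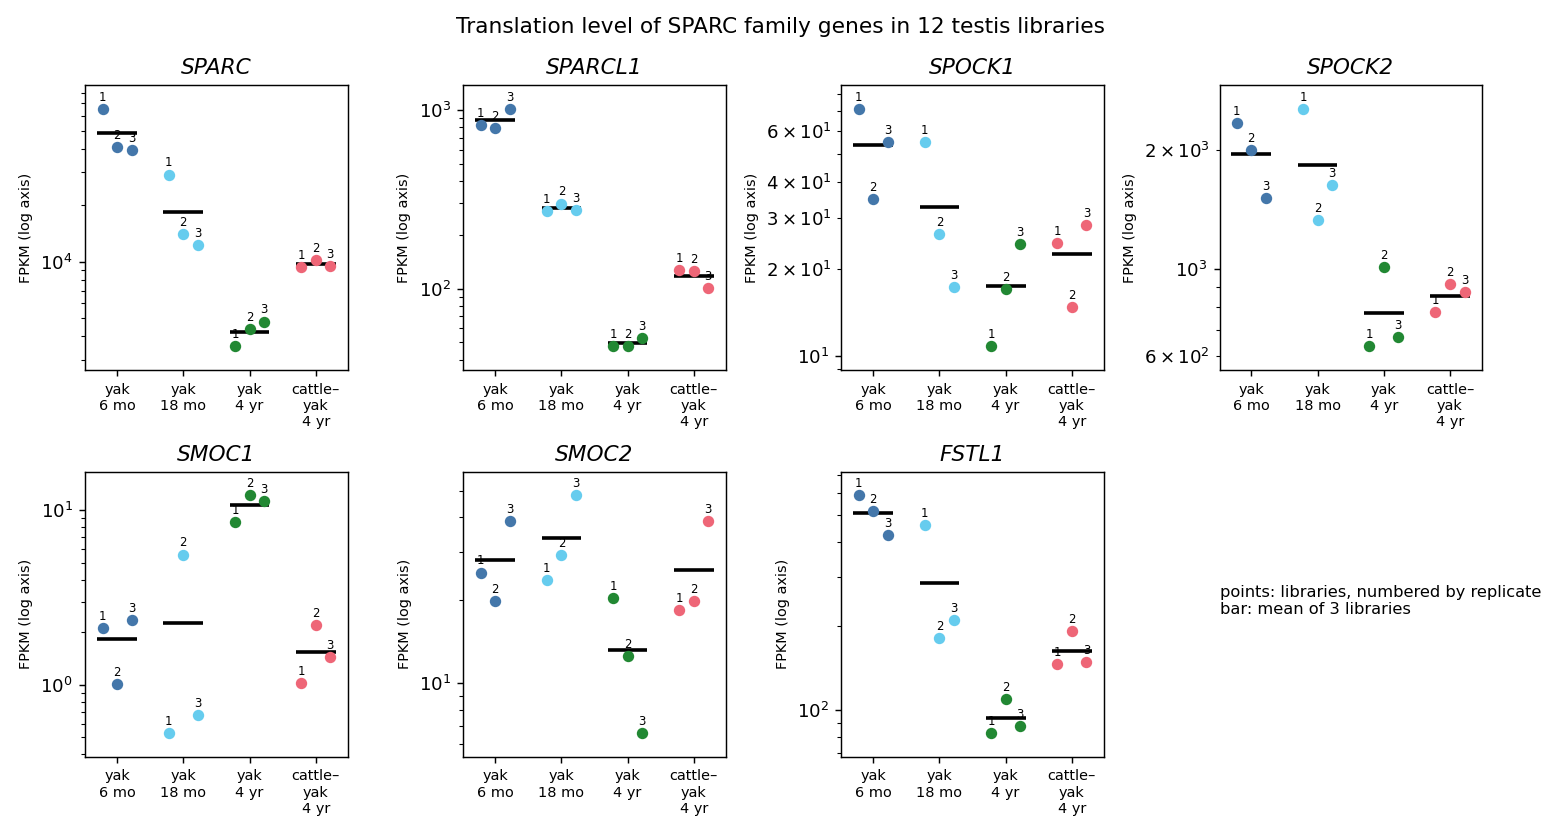
The FPKM of the 7 genes is plotted on log axes for the 12 libraries, with points for libraries numbered by replicate, and bars for the mean of 3 libraries. *SPARC* and *SPARCL1* step down from Y6M through Y18M and CY to Y4Y without overlap, whereas *SMOC1* is highest in Y4Y at 8.57 to 12.2. The share of all genes without overlap was not counted.

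The make-up of the family differed between groups even where scaling plays no part. *SPARC* made up 92.4% to 94.5% of the summed family FPKM in Y6M, 84.9% to 89.7% in Y18M, 88.9% to 89.5% in CY and 78.3% to 84.9% in Y4Y. The part of *SPOCK2* was 3.36% to 4.53% in Y6M, 7.80% to 11.3% in Y18M, 7.43% to 8.14% in CY and 11.8% to 18.1% in Y4Y. The ratio of *SPOCK2* to *SPARCL1* FPKM was 1.48 to 2.83 in Y6M, 4.42 to 9.32 in Y18M, 6.11 to 8.64 in CY and 12.6 to 21.2 in Y4Y. Ranges of Y6M and Y4Y overlapped for none of these 3 quantities, and for the ratio CY lay within the range of Y18M.

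Comparisons between groups were made with edgeR's quasi-likelihood test on counts scaled by TMM (trimmed mean of M values), with Benjamini-Hochberg adjustment over all genes tested. A gene was called differentially translated (DTG) where the adjusted p lay below 0.05 and its log2 fold change, up or down, was 1 or more. Errors of log2 fold changes are standard errors. Each of the 4 groups enters 2 of the comparisons below, so comparisons that share libraries are not independent of each other.

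The comparison of cattle–yak with mature yak asked how the family differs in a sterile hybrid testis of the same labelled age. *SPARCL1* was higher and *SMOC1* lower in CY than in Y4Y, *FSTL1* was higher by less than the fold threshold, and *SMOC2*, *SPOCK1* and *SPOCK2* did not pass the test. Of the 6 genes tested, 1 was a higher and 1 a lower DTG, while 17.1% of all genes tested were higher and 27.0% lower DTGs, so a share of this size is near the background. *SPARC* itself was 2.30-fold higher in CY, a log2 fold change of 1.20 given with no test. The groups did not overlap, which only describes values by which *SPARC* was chosen.

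*SPARCL1* was 2.40-fold higher in CY (log2 fold change 1.26 ± 0.14, edgeR adjusted p = 8.23e-05). *SMOC1* was 6.86-fold higher in Y4Y than in CY (log2 fold change of CY over Y4Y -2.78 ± 0.30, edgeR adjusted p = 8.43e-05). Both were DTGs in all 16 fits that were run, with log2 fold changes of 1.19 to 1.38 and of -3.10 to -2.21. The log2 fold change of *FSTL1* was 0.81 ± 0.16 (edgeR adjusted p = 0.00204), and its 3 CY libraries all lay above its 3 Y4Y libraries. *SMOC2* differed by a log2 fold change of 1.01 ± 0.43 (edgeR adjusted p = 0.0672), which became a DTG without Y4Y-1 (1.59, adjusted p = 0.0168) or without CY-1 (1.20, adjusted p = 0.0477). The values were 0.39 ± 0.32 for *SPOCK1* (adjusted p = 0.303) and 0.16 ± 0.19 for *SPOCK2* (adjusted p = 0.484), and the groups overlapped for both.

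Markers of several cell types differed between the same groups. The summed FPKM of the 7 Sertoli cell markers (3 higher and 0 lower DTGs) was 1168 to 1434 in CY and 641 to 881 in Y4Y. That of 3 Leydig cell markers was 672 to 1134 in CY and 86.3 to 218 in Y4Y. Fibroblast markers (6 genes) summed to 408 to 667 in CY and 130 to 169 in Y4Y, and peritubular myoid markers, of which all 6 were higher DTGs in CY, to 813 to 1324 and 222 to 231. Endothelial markers (7 genes, 1 higher and 1 lower DTG) overlapped, at 26.1 to 37.7 and 21.7 to 27.9, and macrophage markers (6 genes, 2 lower DTGs) were lower in CY, at 105 to 136 against 275 to 348. Spermatogonium markers (6 genes, 3 higher and 0 lower DTGs) summed to 1444 to 1594 in CY and 633 to 925 in Y4Y. Spermatocyte markers (8 genes, 0 higher and 4 lower DTGs) summed to 319 to 463.62 in CY and 463.87 to 521 in Y4Y. All 6 spermatid markers were lower DTGs in CY, and none of these marker lists had a gene at 0 throughout a group. Their part in the differences of the family was not tested.

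**Figure D3:**
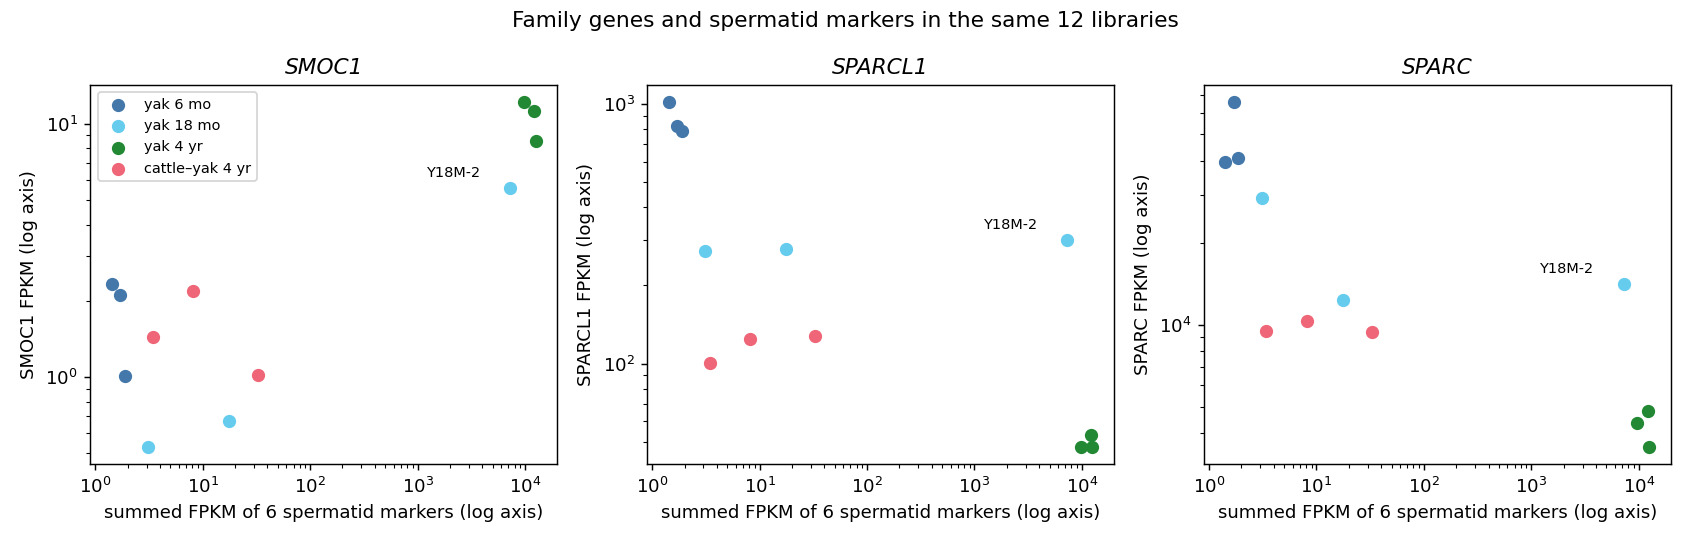
The FPKM of *SMOC1*, *SPARCL1* and *SPARC* is plotted against the summed FPKM of 6 spermatid markers, with log axes and 1 point for each of the 12 libraries. Y18M-2, with a marker sum of 7219, lies between the other libraries of Y18M and Y4Y for *SMOC1* (5.58) but with the other libraries of Y18M for *SPARCL1* (300).

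Cattle–yak was next compared with juvenile yak, in which the spermatid markers were low as well. Markers of spermatogonia and spermatocytes differed between these groups, as given below. In CY, *SPARCL1*, *FSTL1*, *SPOCK1* and *SPOCK2* were lower, and *SMOC1* and *SMOC2* did not pass the test. Thus 4 of 6 genes tested were lower DTGs and 0 were higher, against 19.7% lower and 18.1% higher among all genes tested. *SPARC* was 7.38-fold higher in Y6M than in CY, a log2 fold change of CY over Y6M of -2.88 with no test. No library of CY reached any of Y6M, which again only describes values by which *SPARC* was chosen.

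*SPARCL1* was 10.8-fold higher in Y6M than in CY (log2 fold change of CY over Y6M -3.44 ± 0.20, edgeR adjusted p = 8.74e-06), and *FSTL1* was 4.62-fold higher (-2.21 ± 0.22, adjusted p = 9.38e-05). *SPOCK1* was 3.54-fold higher in Y6M (-1.82 ± 0.34, edgeR adjusted p = 0.00231) and *SPOCK2* 3.36-fold higher (-1.75 ± 0.24, adjusted p = 0.000477). These 4 genes were DTGs in all 16 fits. The log2 fold change was -0.78 ± 0.45 for *SMOC1* (edgeR adjusted p = 0.170) and -0.61 ± 0.33 for *SMOC2* (adjusted p = 0.148), and *SMOC2* passed only without CY-3 (-1.03, adjusted p = 0.0206).

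The scale mattered for the size of these differences. TMM scaling factors were 0.698 to 0.824 in Y6M and 1.12 in the 3 CY libraries, so the log2 ratio of mean FPKM was smaller, at -2.32 for *SPARC* and -2.90 for *SPARCL1*. With library size alone the median log2 fold change of all genes moved from -0.02 to 0.52, and 4863 higher and 1875 lower DTGs were found in place of 2823 and 3067. The direction of all 7 genes was the same under both scalings. Sertoli cell markers, with 3 lower and 0 higher DTGs of 7, summed to 6269 to 7719 in Y6M against 1168 to 1434 in CY. Most of this sum was *INHA*, at a mean FPKM of 6580 in Y6M and 870 in CY. Of the 7, 2 had a log2 fold change above 0. Leydig cell markers summed to 1689 to 2654 against 672 to 1134, and fibroblast markers to 2617 to 2775 against 408 to 667. Endothelial markers, with 6 of 7 lower DTGs in CY, summed to 140 to 270 in Y6M against 26.1 to 37.7, and macrophage markers, with 4 lower and 1 higher of 6, to 197 to 310 against 105 to 136. Peritubular myoid markers ran the other way, with 3 higher and 0 lower of 6 and 175 to 282 in Y6M against 813 to 1324 in CY. Spermatogonium markers, with 4 higher and 1 lower of 6, summed to 306 to 453 in Y6M against 1444 to 1594 in CY. Spermatocyte markers, with 6 higher and 0 lower of 8, summed to 127 to 190 against 319 to 464. Of round spermatid markers, 2 were tested and 2 were higher DTGs in CY, and of elongating spermatid markers 1 was tested and 0 called. The part of these cell types in the differences of the family was not tested.

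**Figure D4:**
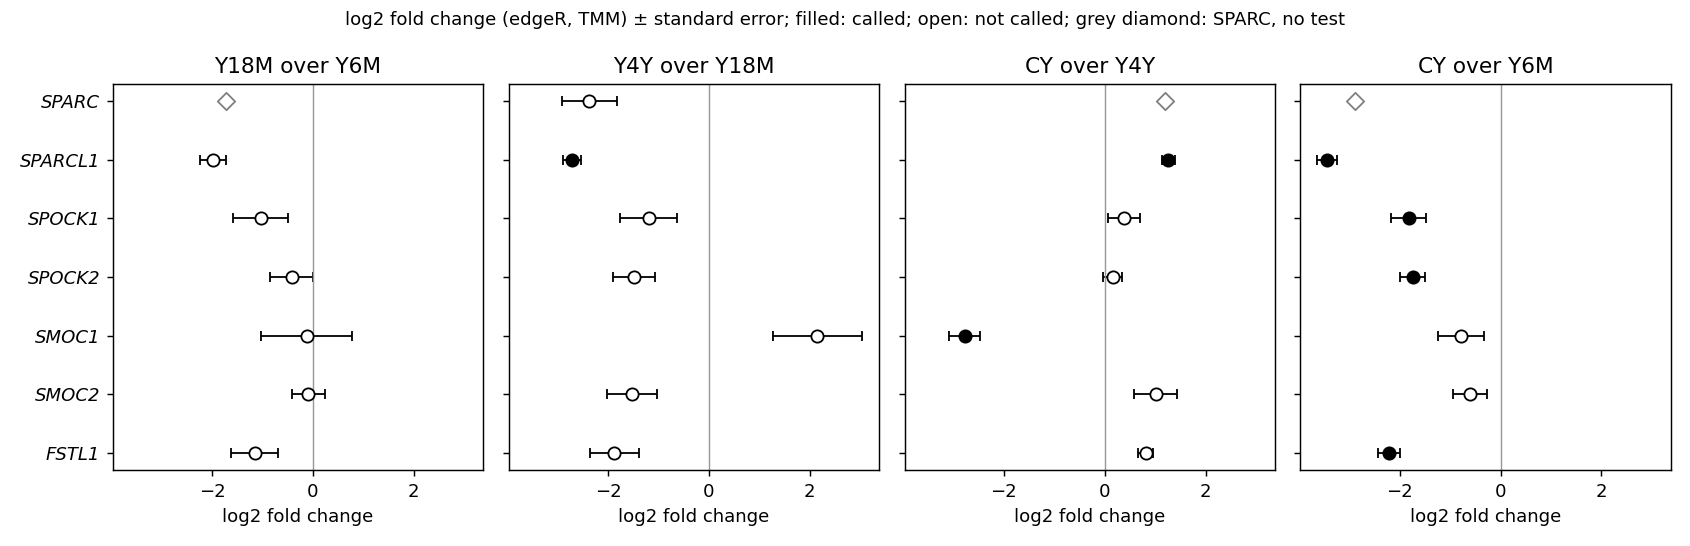
The log2 fold change (edgeR, TMM) of the 7 genes is plotted for 4 comparisons, with bars for the standard error, filled points for DTGs, open points for other genes tested and grey diamonds for *SPARC* where it has no test. In CY over Y6M all 7 lie below 0, and in CY over Y4Y *SMOC1*, at -2.78, lies apart from the other 6.

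Between 6 and 18 months, the first step of postnatal growth, 0 of 6 genes tested were DTGs by edgeR, while 0.0672% of all genes tested (10 of 14874) were. At an unadjusted p below 0.05 there were 2, *SPARCL1* and *FSTL1*, and the share of all genes at that threshold was not counted. Without it, this count does not set the family apart from other genes. DESeq2, by which 12.6% of all genes were DTGs, and limma on log2(FPKM + 1), by which 0.988% were, each called 1, *SPARCL1*. The log2 fold change of Y18M over Y6M was -1.98 ± 0.26 for *SPARCL1* (edgeR adjusted p = 0.0533), with all 3 libraries of Y18M below all 3 of Y6M. It was -1.15 ± 0.47 for *FSTL1* (edgeR adjusted p = 0.181), -1.03 ± 0.54 for *SPOCK1* (0.266) and -0.42 ± 0.43 for *SPOCK2* (0.554). The values of *SMOC1* (-0.12) and *SMOC2* (-0.09) changed sign with the setting. *SPARC* was 3.29-fold higher in Y6M, with a log2 fold change of -1.72 and no test.

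These results depended on Y18M-1, the library in which the summed Sertoli cell markers, mostly *INHA*, lay at the level of Y6M. Without it, *SPARCL1* (-2.07, edgeR adjusted p = 0.0122), *FSTL1* (-1.86, adjusted p = 0.0162) and *SPOCK1* (-1.79, adjusted p = 0.0371) were lower DTGs, where 16.8% of all genes were DTGs. Without Y18M-2, the library with spermatid markers, 0 of the 6 were DTGs by edgeR, where 0.504% of all genes were. Of the 6, 2 had an unadjusted p below 0.05, a threshold at which all genes were not counted, so this does not set the family apart either. The log2 fold change of *SPARC* was -2.37 without Y18M-1 and -1.51 without Y18M-2. In Y18M-1 the summed FPKM of fibroblast markers was 980 and of endothelial markers 244, against 420 and 723 and 87.4 and 93.2 in the other 2 libraries, and their part was not tested.

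From 18 months to 4 years, *SPARCL1* was the only gene of the family that passed, 1 of 7 genes tested where 0.0371% of all genes (6 of 16175) were DTGs. Here *SPARC* was tested too, since the libraries in which it ranked first belong to neither group. Its p-value is still not free of the choice, as the members were chosen with earlier results of these data known. *SPARCL1* was 6.54-fold higher in Y18M than in Y4Y (log2 fold change of Y4Y over Y18M -2.71 ± 0.18, edgeR adjusted p = 0.0332), and it was no longer a DTG without Y18M-3 (0.174) and without Y4Y-1, Y4Y-2 or Y4Y-3 (0.230 to 0.244). *SPARC* was 5.18-fold higher in Y18M (-2.37 ± 0.55, edgeR adjusted p = 0.0716). The values were -1.87 ± 0.49 for *FSTL1* (0.0781), -1.49 ± 0.42 for *SPOCK2* (0.0865), -1.52 ± 0.49 for *SMOC2* (0.101), -1.19 ± 0.56 for *SPOCK1* (0.176) and 2.15 ± 0.88 for *SMOC1* (0.142). The groups overlapped in FPKM for *SPOCK1* and not for the others, but the share of all genes without overlap was not counted. The p-values carry the spread within Y18M.

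Without Y18M-2, 5 genes were lower DTGs and *SMOC1* was a higher DTG, and 44.6% of all genes tested (7310) were DTGs. The 5 were *SPARC* (-2.56, edgeR adjusted p = 0.00329), *SPARCL1* (-2.70, 4.11e-05), *FSTL1* (-2.13, 0.00315), *SPOCK2* (-1.69, 0.00583) and *SMOC2* (-1.63, 0.0207). *SMOC1* then had a log2 fold change of 3.92 ± 0.33 (edgeR adjusted p = 9.61e-05). DESeq2 on all 6 libraries also called 5 lower and 1 higher, where 27.1% of all genes were DTGs. Without Y18M-1, only *SPARCL1* was a DTG (-2.63, edgeR adjusted p = 0.0348), and 0.116% of all genes were. The summed FPKM of Sertoli cell markers was 2034 to 6316 in Y18M and 641 to 881 in Y4Y, that of fibroblast markers was 420 to 980 and 130 to 169, and their part was not tested.

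Genes with the pattern most like that of *SPARC* were found by Pearson's correlation of TMM-scaled log2 CPM (counts relative to the scaled library total) over the 12 libraries, which share the differences between the 4 groups. The 5 closest were *COL4A1*, a basement membrane collagen chain (r = 0.994), *TIMP2* (0.993), *UGGT1*, a glucosyltransferase of protein folding in the endoplasmic reticulum (0.991), *SOD3*, the extracellular superoxide dismutase (0.989), and *AIF1L* (0.988). The FPKM of *COL4A1* was 1390 on average in Y6M, 344 in Y18M, 29.3 in Y4Y and 88.1 in CY, so its mean followed the order of *SPARC*. All 5 were also the closest on log2(FPKM + 1). The closest gene was *AASS* for *SPARCL1* (0.986), *TLCD5* for *SPOCK1* (0.963), *LRP1* for *SPOCK2* (0.990), *DGAT2* for *SMOC1* (0.956), *L1CAM* for *SMOC2* (0.913) and *CHPF* for *FSTL1* (0.997). On log2(FPKM + 1) the closest gene was instead *NRK* for *SPARCL1* (0.982) and *CPD* for *SPOCK2* (0.978), and it was the same gene for the other 4. *L1CAM* was barely translated, with group means of 0.267 to 0.437 FPKM. *DGAT2* had a mean FPKM of 63.9 in Y4Y against 2.80 in CY, the direction of *SMOC1*. Within the family, *SPARC*, *SPARCL1*, *SPOCK1*, *SPOCK2* and *FSTL1* had correlations of 0.83 to 0.99 between each pair.

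Other genes of the matrix and of the pathways in which the family acts were taken from 4 lists, with 84 genes in the tables. In CY against Y4Y, collagens and their processing enzymes had 8 higher and 0 lower DTGs of 21 tested, with a median log2 fold change of 0.84 against 0.00 over all genes, where 17.1% of all genes tested were higher. *COL3A1*, a fibrillar collagen, had an FPKM of 113 ± 29.2 (SD, n = 3) in CY and 19.2 ± 1.61 in Y4Y (log2 fold change 2.52 ± 0.19, edgeR adjusted p = 1.17e-05). *PLOD2*, which hydroxylates collagen lysines, had 29.0 ± 12.2 and 0.957 ± 0.318 (4.85 ± 0.36, edgeR adjusted p = 1.08e-05). Of this list, *COL3A1* and *COL1A2* are also among the fibroblast markers, as is *PDGFRA* of the next list, so these sets are not separate observations. Receptors, proteases and binding partners of the family had 6 higher and 1 lower of 19, with a median of 0.45. Among them, *TGM2*, a transglutaminase that crosslinks matrix proteins, had an FPKM of 228 ± 14.1 in CY and 35.2 ± 1.50 in Y4Y (2.70 ± 0.13, edgeR adjusted p = 1.15e-06), and the growth factor receptor *FGFR1* had a log2 fold change of 1.68 ± 0.40 (adjusted p = 0.00636).

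Other matricellular genes in CY against Y4Y had 3 higher and 4 lower DTGs of 15, near the 17.1% higher and 27.0% lower of all genes tested. *FBLN1*, a fibulin, was higher in CY (1.34 ± 0.18, edgeR adjusted p = 0.000298), while *COMP*, a thrombospondin of cartilage and tendon, fell to an FPKM of 0.75 ± 0.27 in CY from 36.3 ± 6.70 in Y4Y (-5.59 ± 0.30, adjusted p = 2.16e-06). *COMP* and *SMOC1* thus shared a direction opposite to that of *SPARCL1*. Of the TGF-β, BMP and activin list, 2 were higher and 5 lower of 26, with a median of 0.23, and neither share exceeded that of all genes. The higher genes were the ligand *TGFB3* (1.11 ± 0.18, edgeR adjusted p = 0.000718) and *FSTL3* (1.68 ± 0.35, adjusted p = 0.00316), a relative of follistatin that binds activin.

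In CY against Y6M, where 19.7% of all genes tested were lower and 18.1% higher DTGs, more genes of each list were lower than higher. Collagens and processing enzymes had 19 lower and 0 higher DTGs of 21, with a median log2 fold change of -2.14 against -0.02 over all genes. The basement membrane chains *COL4A1* (-4.62 ± 0.32, edgeR adjusted p = 2.00e-05) and *COL4A2* (-5.17 ± 0.30, adjusted p = 8.49e-06) fell most among the collagens and processing enzymes with a mean FPKM of at least 10 in either group. Receptors, proteases and partners had 14 lower and 1 higher of 19, among them *VCAM1*, an adhesion receptor for SPARC (-3.72 ± 0.18, edgeR adjusted p = 4.26e-06), and the membrane-bound protease *MMP16* (-4.39 ± 0.39, adjusted p = 6.04e-05). Of other matricellular genes, 8 were lower and 3 higher of 14. *SPP1*, osteopontin, was lower (-4.49 ± 0.48, edgeR adjusted p = 0.000138) and *CCN2*, connective tissue growth factor, was higher in CY (2.28 ± 0.24, adjusted p = 0.000119). The TGF-β, BMP and activin list had 14 lower and 2 higher of 24. Its most lowered genes were *CHRD*, chordin, an extracellular BMP antagonist (-6.91 ± 0.38, edgeR adjusted p = 7.64e-06), and *INHA*, the inhibin α subunit, which is also 1 of the Sertoli cell markers (-3.46 ± 0.24, adjusted p = 1.83e-05).

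**Figure D5:**
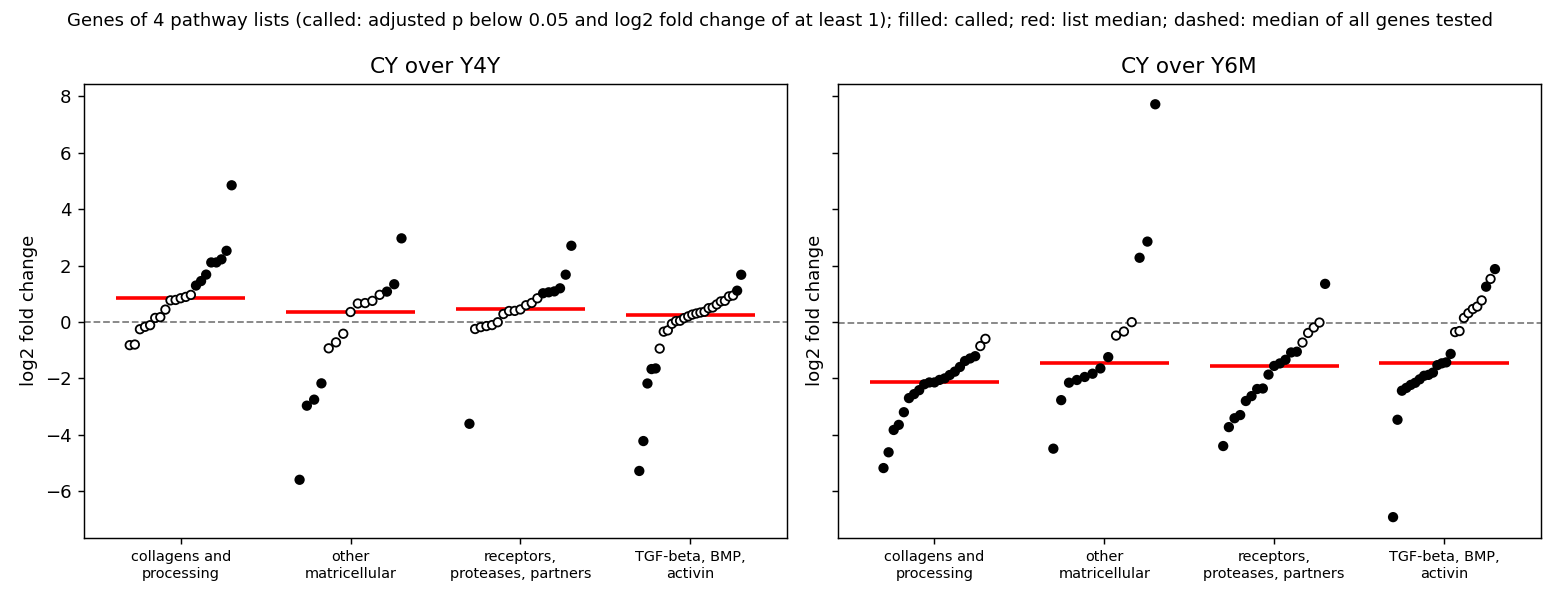
Each point is the log2 fold change of 1 gene of 4 pathway lists in CY over Y4Y and in CY over Y6M, filled where it is a DTG, with a red line at the list median and a dashed line at the median of all genes tested. Collagens and processing enzymes have a median of 0.84 in the first comparison and -2.14 in the second.

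In the comparisons with Y18M, 0 genes of the 4 lists were DTGs by edgeR, of 77 tested against Y6M and of 81 tested against Y4Y. At an unadjusted p below 0.05 there were 51 and 41, and the share of all genes at that threshold was not counted. Without it, these counts do not set the lists apart from other genes. DESeq2 called 4 higher and 35 lower in Y18M against Y6M, where 12.6% of all genes were DTGs. It called 6 higher and 33 lower in Y4Y against Y18M, where 27.1% were. Without Y18M-1 the first comparison had 3 higher and 40 lower, where 16.8% of all genes were DTGs, and without Y18M-2 it had 0 higher and 3 lower, where 0.504% were. The second comparison had 8 higher and 39 lower without Y18M-2, where 44.6% of all genes were DTGs, and 0 higher and 2 lower without Y18M-1, where 0.116% were. All 21 collagens and processing enzymes had a log2 fold change below 0 in Y18M against Y6M, with a median of -1.75.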

How the data were processed

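Ribo-seq of 12 testes was analysed, with 1 library per animal and groups taken from the labels. Per the methods, fastp was used for trimming, Bowtie2 and BLAST for removing reads of rRNA and small RNA, and STAR for aligning reads of 20 to 40 bases to the yak genome. The counts were made by the authors with RSEM in open reading frames and deposited as whole numbers without normalization. The deposited FPKM was made by the authors from these counts, gene length and library total. The authors' fold changes, p-values and group means in the tables were not used.

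After filterByExpr and TMM scaling, edgeR 4.0.16 (R 4.3.3) was run on the 6 libraries of each comparison, with Benjamini-Hochberg adjustment over all genes tested. The standard error was approximated as the log2 fold change over the square root of F. The alternatives were 6 fits that each leave out a library, DESeq2 1.42.0, limma 3.58.1 on log2(FPKM + 1) and log2(FPKM + 0.1), scaling by library size, RLE or upper quartile, dropping the filter, a joint fit of all 12 libraries, and a replicate block, for 16 fits in all. The tests were also run on simulated counts with a common spread per gene. Such counts hold no outlying library like those of Y18M, so they do not bear on those comparisons. Replicates differed by 26.4 to 336 in chi-square per degree of freedom, so no library was a copy of another. P-values measure the spread between animals and library preparation together.

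The members, the gene lists and the cell type markers were chosen with earlier results of these data known. List genes were named by a rule: at most 2 DTGs of each list and comparison with the largest change and a mean FPKM of at least 10 in either group. Positions and sequences were not used here. Python 3.11.15 with pandas 2.3.3, numpy 2.4.6, scipy 1.17.1 and matplotlib 3.10.9 was used for summaries and figures.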

Additional observations from a re-analysis of the deposited data

How the results depend on the processing

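Both comparisons with Y18M depended on the fit, and the cause was not tested. In Y18M against Y6M, all genes gave 10 DTGs, against 1868 with DESeq2, 322 with library size alone, 130 with the upper quartile, 3 with no filter, 2654 with all 12 libraries in 1 fit, 147 with limma on log2(FPKM + 1), 387 with limma on log2(FPKM + 0.1), 538 with a replicate block, and 0 to 2593 with 1 library left out. Of the family, 0 were called, against 1 lower (*SPARCL1*) with each of these but no filter, and 0 to 3 with 1 library left out, the 3 without Y18M-1. Of the 4 lists, 0 were called, against 4 higher and 35 lower with DESeq2, 1 and 8 with library size alone, 3 lower with the upper quartile, 5 and 36 with all 12 libraries, 4 lower with limma on log2(FPKM + 1), 1 and 5 with limma on log2(FPKM + 0.1), 1 and 24 with the block, and 0 to 3 higher and 0 to 40 lower with 1 library left out.

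In Y4Y against Y18M, all genes gave 6 DTGs, against 4383 with DESeq2, 3486 with all 12 libraries, 72 with limma on log2(FPKM + 1), 27 with limma on log2(FPKM + 0.1), 0 with the block and 0 to 7310 with 1 library left out. Of the family, 1 lower was called, against 5 lower and 1 higher with DESeq2 and with all 12 libraries, 0 with the block, and 0 to 5 lower and 0 to 1 higher with 1 library left out, the 5 without Y18M-2. Of the 4 lists, 0 were called, against 6 higher and 33 lower with DESeq2, 2 and 33 with all 12 libraries, 1 lower with either limma fit, and 0 to 8 higher and 0 to 39 lower with 1 library left out.

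In CY against Y4Y, 1 to 2 genes of the family were higher with 1 library left out, and limma on log2(FPKM + 1) called 5 lower list genes in place of 10. In CY against Y6M the 2823 higher and 3067 lower DTGs became 4863 and 1875 with library size alone, 3856 and 1355 with limma on log2(FPKM + 1) and 4966 and 1867 with limma on log2(FPKM + 0.1), while the 6 higher and 55 lower list genes became 8 and 41, 7 and 38, and 8 and 40. Ranked by FPKM, *SPARC* stood at 5 in Y18M-2, 16 in Y4Y-2, 12 in Y4Y-3 and 5 in each of CY-1, CY-2 and CY-3.

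The direction of the 7 genes was kept in all 16 fits of each comparison, except for 2 genes in Y18M against Y6M. *SMOC1* (-0.12) became 0.31 with library size alone and ran from -1.91 to 0.31 with 1 library left out, with 0.08 without Y6M-1, 0.0022 without Y6M-3, 0.27 without Y18M-1 and 0.31 without Y18M-3. *SMOC2* (-0.09) became 0.27 with library size alone, 0.25 and 0.26 with limma on log2(FPKM + 1) and log2(FPKM + 0.1), and ran from -0.40 to 0.14 with 1 library left out, with 0.14 without Y6M-3 and 0.03 without Y18M-1 or Y18M-2. Library size alone moved the median log2 fold change of all genes to 0.40 in Y18M against Y6M and 0.19 in Y4Y against Y18M. Same-numbered libraries did not deviate together (correlations of -0.10 to 0.07), so the block rests on a shared number only. The 17 to 291 counts of *SMOC1* per library limit its precision.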
